A study of Mus musculus with 2 samples.

Results

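Transcripts of 34 nuclear receptor genes were examined in cultured mouse primary hepatocytes, which are liver cells isolated from the animal, after infection with lentivirus expressing an shRNA against JMJD3 or with control lentivirus. The 34 genes are the thyroid hormone, retinoic acid, REV-ERB and ROR, liver X, vitamin D, xenobiotic, estrogen, corticosteroid and related orphan receptors, without the PPAR, RXR and NR4A groups. They were chosen by symbol, and all 34 had a row among the 23284 genes counted. JMJD3, encoded by Kdm6b, removes methyl groups from lysine 27 of histone H3.

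The JMJD3 shRNA group and the control lentivirus group each comprised 1 library, made from hepatocytes pooled from 5 C57BL/6 mice. In both groups infection began 24 h after plating in medium with serum and lasted 48 h. A final 6 h in 5 mM glucose with 10 µM forskolin, which raises cyclic AMP, stood for fasting in both groups, so every value below is from stimulated cells. The comparison here asks how transcripts of the wider receptor family differ between the libraries. There was no replicate library, so no difference below has a replicate check, and no test of the conditions was possible.

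Nuclear receptors are transcription factors whose DNA-binding domain is formed by zinc fingers and whose ligand-binding domain, in many members, takes up a hormone, vitamin, sterol or drug. For some of them, ligand binding exchanges corepressors for coactivators at the receptor's target genes. In liver these receptors are known for control of bile acid, cholesterol, drug, glucose and lipid metabolism and of the daily clock, and several orphan members act without a known hormone.

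The libraries held 18334366 counts with JMJD3 shRNA and 11099562 counts in control, a 1.65-fold difference in depth. Levels are given as CPM, counts scaled to a library size of 1000000 after TMM scaling. Ratios are JMJD3 shRNA over control on the log2 scale, with exact binomial 95% intervals in brackets that cover counting error only. A gene was called measured at a mean of at least 1 CPM, and higher or lower when its ratio lay 1.5-fold or more away from 1 with an interval that left out 1. Kdm6b, the target, had 33.0 CPM with JMJD3 shRNA against 90.7 CPM in control (log2 ratio -1.46).

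The cells were checked against markers, since their makeup can move with the receptors. Counts of genes called higher or lower, here and for each list below, are to be read against 15.3% higher and 12.8% lower among all 12607 measured genes. The receptors and the lists below were chosen with earlier results of these data known, so their shares are only a description. Of 12 hepatocyte markers 10 were measured, with 5 lower and 1 higher. Their summed level was 8030 CPM with JMJD3 shRNA and 8506 CPM in control. Of the measured ratios 9 were below 1, and the 1 above it was at 0.78 on the log2 scale. Albumin, Alb, had 794 CPM with JMJD3 shRNA and 1519 CPM in control. Cyp2e1, a drug-metabolising P450, had 0 counts in both libraries, and Fabp1, the liver fatty acid binding protein, had 2 in each. Cholangiocyte markers were 3 of 6 higher and 0 lower, and their summed level was 8432 CPM with JMJD3 shRNA and 8099 CPM in control, mostly from Spp1. Stellate cell and fibroblast markers were 3 of 9 lower, with sums of 205 CPM with JMJD3 shRNA and 215 CPM in control. Sinusoidal endothelial markers were 2 of 8 lower and 1 higher, with sums of 50.8 CPM with JMJD3 shRNA and 55.7 CPM in control. Macrophage markers were 0 of 7 higher or lower, with sums of 30.9 CPM with JMJD3 shRNA and 28.6 CPM in control, and the Kupffer cell marker Clec4f was at 0 counts in both. Itgam alone was measured of 8 markers of blood and lymphoid cells, whose sums were 2.37 CPM with JMJD3 shRNA and 2.58 CPM in control. The part of these markers in the receptor values was not tested. In bulk RNA, fewer cells of a type and less RNA per cell cannot be told apart.

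Of the 34 receptor genes 23 were measured. With JMJD3 shRNA 5 of them were higher, namely Rara, Rarg, Nr1d1, Nr2c2 and Nr3c1, and 7 were lower, namely Rorb, Vdr, Nr1i2, Nr1h3, Thrb, Nr2f2 and Rarb. These counts are 21.7% and 30.4% of the 23, against the 15.3% and 12.8% of all measured genes. The median log2 ratio of the 23 was -0.13, against 0.00 for all measured genes, and the standard deviation among them was 0.94. Of the 11 that passed neither way, 5 had intervals that excluded 1 with ratios nearer than 1.5-fold, and 6 had intervals that included 1. At 2-fold in place of 1.5-fold 1 receptor was higher and 2 were lower, against 7.35% and 6.19% of all measured genes. Summed over all 34 genes, the level per kilobase of exon was 317.4 CPM per kb with JMJD3 shRNA and 317.4 CPM per kb in control.

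**Figure D1:**
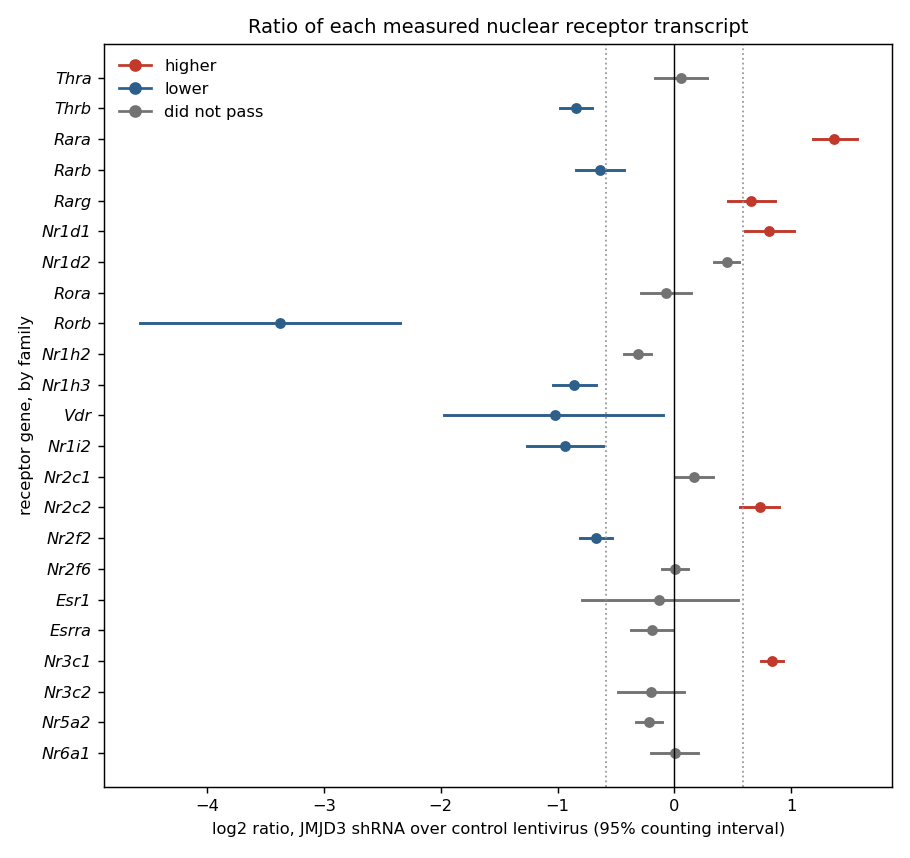
Log2 ratio of JMJD3 shRNA over control lentivirus (x axis) for the 23 measured receptor genes, ordered by family (y axis). Points are ratios, bars are exact binomial 95% counting intervals and dotted lines mark 1.5-fold. Rara was highest at 1.37 and Rorb lowest at -3.38. Only the retinoic acid receptors and the REV-ERB and ROR family held both higher and lower genes.

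Per kilobase of exon, the scale on which genes can be set beside each other, Nr2f6 and Nr1h2 led in both libraries. Nr2f6, the COUP-TF relative EAR2, had 42.3 CPM per kb with JMJD3 shRNA and 42.1 in control. Nr1h2, which encodes LXRbeta, had 39.2 CPM per kb with JMJD3 shRNA and 48.7 in control. Nr3c1, the glucocorticoid receptor, had rank 3 with JMJD3 shRNA and rank 7 in control. Rara differed most in rank, at 6 with JMJD3 shRNA and 16 in control. Nr1h3 stood at rank 11 with JMJD3 shRNA and rank 4 in control. Rorb and Vdr were the lowest measured genes in both libraries, each below 1 CPM per kb.

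**Figure D2:**
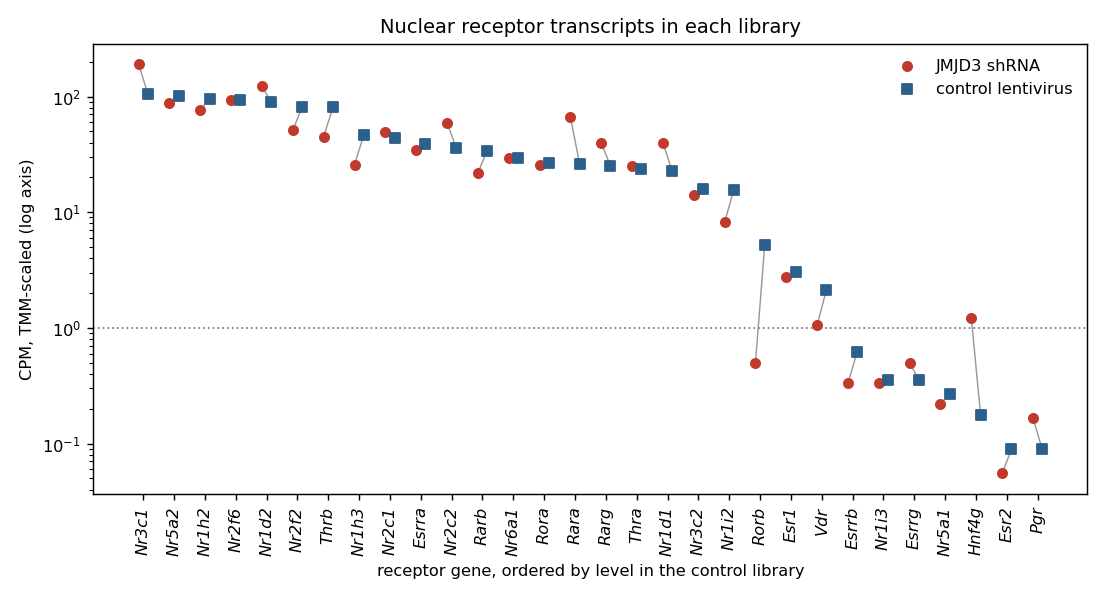
TMM-scaled CPM on a log axis (y axis) of the 30 receptor genes with at least 1 count (x axis), with JMJD3 shRNA as circles on the left of each pair and control lentivirus as squares on the right. The dotted line marks 1 CPM, and a line joins the libraries for each gene. Rara, Nr1d1 and Nr3c1 lay above control with JMJD3 shRNA, and Rorb, Nr1h3 and Nr1i2 lay below it.

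The retinoic acid receptors, which bind retinoic acid as partners of RXR, divided within the family. Rara had 67.0 CPM with JMJD3 shRNA against 25.9 CPM in control, from 1213 and 291 counts. Its log2 ratio of 1.37 (1.19 to 1.56), a fold of 2.59, was the highest of the measured receptors. In mm9 Rara spans positions 98799010 to 98836256 of chromosome 11, on the plus strand, in 12 exons. Rarg, the form best known from skin, had 39.7 CPM with JMJD3 shRNA against 25.1 CPM in control, for a log2 ratio of 0.66 (0.46 to 0.86). Rarb had 21.8 CPM with JMJD3 shRNA against 33.9 CPM in control, for a log2 ratio of -0.64 (-0.84 to -0.43), and was the sole lower gene of the 3.

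Rarb (mm9 chromosome 14, positions 17263354 to 17407724, minus strand) is itself a known target of retinoic acid receptors. Its promoter is shown because it holds the textbook response element, a pair of GTTCAC repeats spaced by any 5 bases. The sequence is from the RefSeq table for GRCm38.p6, at chr14:16575427-16575726 on the minus strand, and runs from 250 bases before to 50 bases after the start. Capitals mark the element, which begins at position -52.
Rarb promoter: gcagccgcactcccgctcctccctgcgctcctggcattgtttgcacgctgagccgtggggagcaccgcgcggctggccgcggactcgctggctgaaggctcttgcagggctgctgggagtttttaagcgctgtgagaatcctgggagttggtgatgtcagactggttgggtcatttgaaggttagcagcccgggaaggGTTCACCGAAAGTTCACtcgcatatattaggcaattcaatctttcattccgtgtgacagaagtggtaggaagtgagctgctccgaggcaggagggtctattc
This direct repeat, searched on both strands, was in 2 of 32851 promoter windows of this length, or 0.00609%, and in no other receptor of the 30 with a window in the table. The search took the exact GTTCAC letters of the Rarb element, so elements with other spellings were not counted. How common retinoic acid elements are in other promoters was therefore not measured. Of 45 receptor windows 5 held the clock E-box CACGTG and 7 held AGGTCA, the core to which many nuclear receptors bind, against 7.15% and 16.3% of all windows. The cyclic AMP element TGACGTCA was in 2, those of Nr2e1 and Nr6a1, against 1.79% of all windows, and its shorter form TGACG, which lies within it, was in 11, against 20.8%. The counts do not separate reads by promoter, so which start site of Rarb they come from is not known.

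The other measured genes that retinoic acid is known to induce did not pass in either direction. Of 11 sought, Rarb among them, 6 were measured, with 0 higher and 1 lower, which is Rarb itself (16.7%, against 12.8% of all measured genes). All 6 ratios, that of Rarb included, were below 1 with a median of -0.34. Cyp26b1 and Cyp26a1, which break down retinoic acid, were at -0.06 (-0.24 to 0.12) and -0.35 (-1.08 to 0.39). The transglutaminase Tgm2, the most counted, was at -0.06. Dhrs3, a retinal reductase, was at -0.47 (-0.57 to -0.36) and had the lowest ratio after Rarb.

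The thyroid hormone receptors also differed from each other. Thrb, the main form in liver, had 45.0 CPM with JMJD3 shRNA against 80.5 CPM in control, from 815 and 905 counts. Its log2 ratio was -0.84 (-0.98 to -0.70), or 1.79-fold lower. Thra had 24.9 CPM with JMJD3 shRNA against 23.8 CPM in control, for a log2 ratio of 0.06 (-0.16 to 0.28) that included no difference. Among 12 known thyroid hormone targets 6 were lower and 1 higher, beside 12.8% lower and 15.3% higher of all measured genes, and the median was -0.67. Dio1, the deiodinase that activates thyroid hormone in liver, had 21 counts with JMJD3 shRNA and 64 in control, a log2 ratio of -2.30 (-3.08 to -1.57), and was the lowest. Cpt1a and the G6pc catalytic subunit, the most counted of the list, were at -1.99 and -0.32. Klf9, a Krüppel-like factor, was the higher one at 1.34.

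REV-ERBs repress and RORs activate through the same elements in clock and metabolic genes. Nr1d1, which encodes REV-ERBalpha, had 39.8 CPM with JMJD3 shRNA against 22.7 CPM in control, for a log2 ratio of 0.81 (0.60 to 1.02). Nr1d2, its beta form, had 122 CPM with JMJD3 shRNA against 89.6 CPM in control, and its log2 ratio of 0.45 (0.34 to 0.56) did not reach 1.5-fold. Rora had 25.4 CPM with JMJD3 shRNA against 26.7 CPM in control, for a log2 ratio of -0.07 (-0.28 to 0.14). Rorb had 9 counts with JMJD3 shRNA and 58 in control, or 0.497 CPM with JMJD3 shRNA and 5.16 CPM in control. Its log2 ratio of -3.38 (-4.58 to -2.35) was the lowest of the measured receptors, and its level per kb of exon was 0.0529 CPM with JMJD3 shRNA against 0.549 CPM in control, far under that of Rora. Thra and Nr1d1 are convergent neighbours on chromosome 11, and a form of Thra is known to end in sequence antisense to Nr1d1. Their exons do not overlap in the gene models used, but the counting did not use strand, so reads of that form cannot be told apart from those of Nr1d1.

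Of 14 measured genes known to be bound by REV-ERB and ROR, 7 were lower and 2 higher, and the median was -0.79. The higher share of 14.3% is near the 15.3% of all measured genes, and 7 of 14 lower stands beside 12.8%. Arntl, which encodes the clock activator BMAL1 and is the best known of them, had 25.2 CPM with JMJD3 shRNA against 72.8 CPM in control, for a log2 ratio of -1.53 (-1.70 to -1.36). Cyp8b1 was the lowest of the list at -6.86, on 1 count with JMJD3 shRNA and 72 in control, and Por was at -1.81. Nfil3, a clock-linked repressor, was at -1.31 and Insig2, which restrains sterol synthesis, at -0.77. G6pc, among the most counted, was at -0.32 and did not pass. Bhlhe41, a repressor of the clock, was highest at 2.44 (1.73 to 3.23), on 157 counts with JMJD3 shRNA and 18 in control. Plin2, the lipid droplet coat protein, was the most counted and was higher at 0.95. Clock at 0.51, Cry1 at -0.47 and Npas2 at -0.49 did not pass.

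Of the oxysterol and vitamin D receptors, Nr1h3 and Vdr were lower and Nr1h2 did not pass. Nr1h3, which encodes LXRalpha, the liver form that senses oxysterols, had 25.6 CPM with JMJD3 shRNA against 46.4 CPM in control. Its log2 ratio was -0.86 (-1.04 to -0.67), or 1.81-fold lower. Nr1h2 had 76.9 CPM with JMJD3 shRNA against 95.6 CPM in control, for a log2 ratio of -0.32 (-0.43 to -0.20) that did not reach 1.5-fold. Vdr, the vitamin D receptor, had 19 counts with JMJD3 shRNA and 24 in control, or 1.05 CPM with JMJD3 shRNA and 2.14 CPM in control, and its log2 ratio of -1.03 had a wide interval (-1.97 to -0.10). With counts halved to allow for read pairs counted as 2 reads, Vdr no longer passed. Vdr and Rarb are known from stellate cells, whose marker list is given above. Among 12 measured LXR targets 4 were lower, Nr1h3 among them, and 1 higher, or 33.3% and 8.33%, against 12.8% and 15.3% of all measured genes, and the median was -0.28. The sterol exporters Abcg5 and Abcg8 were at -3.08 and -2.29, while Abca1, which loads cholesterol onto HDL and was the most counted, was at -0.27. Cyp7a1, which starts bile acid synthesis, had 0 counts with JMJD3 shRNA and 37 in control. Fasn, fatty acid synthase, was higher at 0.76. Ratios of all measured genes moved with exon length, as given at the end, and Fasn and Abca1 are long genes. With that trend removed Fasn stood at 0.32 and no longer passed, Abca1 was lower at -0.72, and the list held 0 higher and 6 lower with a median of -0.56.

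Of the xenobiotic receptors, which induce drug-clearing enzymes, only PXR was measured. Its gene Nr1i2 had 8.17 CPM with JMJD3 shRNA against 15.7 CPM in control, from 148 and 176 counts, a log2 ratio of -0.94 (-1.26 to -0.61). Nr1i3, which encodes CAR and is abundant in liver tissue, had 6 counts with JMJD3 shRNA and 4 in control. Known targets of PXR and CAR were 10 of 15 lower and 3 higher, or 66.7% and 20.0%, against 12.8% and 15.3% of all measured genes, and their median was -1.08. With a minimum of 5 CPM 5 were lower and 3 higher, since Cyp3a11, Cyp2b10 and 3 other lower genes lie under it. Slco1a4, an organic anion transporter, was lowest, on 5 counts with JMJD3 shRNA and 503 in control (log2 ratio -7.34). Cyp3a11, the P450 used most often to follow PXR in mice, had 4 counts with JMJD3 shRNA and 81 in control, and Cyp2b10, used likewise for CAR, had 2 with JMJD3 shRNA and 25 in control. The conjugating enzyme Gstm1 was the most counted and was at -0.71 (-0.51 and not lower with the exon length trend removed), and the bile pump Abcc2 at -0.02 did not pass. The higher genes were Gadd45b at 1.98, Abcb1a, on 181 counts with JMJD3 shRNA and 56 in control, and Cyp3a13 at 0.78.

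The glucocorticoid receptor took the most counts of the receptors in both libraries. Nr3c1 had 189 CPM with JMJD3 shRNA against 106 CPM in control, from 3429 and 1191 counts, a log2 ratio of 0.84 (0.74 to 0.93) and a fold of 1.79. With the exon length trend removed Nr3c1 stood at 0.56 and no longer passed. Nr3c2, the mineralocorticoid receptor, had 253 counts with JMJD3 shRNA and 180 in control, a log2 ratio of -0.20 (-0.48 to 0.09). Known glucocorticoid targets did not move in 1 direction. Of 24 measured, 13 were lower and 5 higher, or 54.2% and 20.8%, against 12.8% and 15.3% of all measured genes, and the median was -0.65. With the exon length trend removed 11 were lower and 4 higher. Tat, the tyrosine aminotransferase long used as a glucocorticoid reporter in liver, was lowest at -4.19, followed by Tdo2 at -4.06 and the kinase Sgk1 at -3.79. Fkbp5, a chaperone that restrains the receptor, was higher at 0.87, as were Klf9 at 1.34, Ddit4 at 0.95, Per1 at 0.68 and Angptl4 at 0.67. Of these Per1 stood at 0.52 with the length trend removed and no longer passed. Tsc22d3, known as GILZ, was at -0.17 (-0.40 to 0.05), and Lcn2, the most counted, at -0.48 did not pass. Several of these genes also respond to cyclic AMP, which forskolin raised in both cultures.

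In the COUP-TF and TR2/TR4 pairs of orphan receptors, Nr2f2 was lower and Nr2c2 higher, while Nr2f6 and Nr2c1 did not pass. Nr2f2, which encodes COUP-TFII and is known from venous endothelium, had 50.9 CPM with JMJD3 shRNA against 81.1 CPM in control, for a log2 ratio of -0.67 (-0.80 to -0.54). Nr2f6 had 93.9 CPM with JMJD3 shRNA against 93.3 CPM in control, for a log2 ratio of 0.01 (-0.10 to 0.12). Nr2c2, which encodes TR4, had 59.5 CPM with JMJD3 shRNA against 35.9 CPM in control, for a log2 ratio of 0.73 (0.56 to 0.90). With the exon length trend removed Nr2c2 stood at 0.39 and no longer passed. Its exons overlap those of Mrps25 on the opposite strand, so its count is uncertain there. Nr2c1, which encodes TR2, had 48.9 CPM with JMJD3 shRNA against 43.6 CPM in control, for a log2 ratio of 0.17 with an interval whose lower bound was just above 0.

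The other measured orphan and estrogen-related receptors did not pass in either direction. Nr5a2, which encodes LRH-1, a regulator of bile acid synthesis, had 87.4 CPM with JMJD3 shRNA against 102 CPM in control, for a log2 ratio of -0.22 (-0.33 to -0.11). Nr6a1, the germ cell nuclear factor, had 29.2 CPM in each library, with a log2 ratio of 0.00 (-0.20 to 0.20). Esrra, which drives mitochondrial genes with PGC-1, had 34.4 CPM with JMJD3 shRNA against 39.1 CPM in control, for a log2 ratio of -0.19 (-0.37 to -0.01), and overlaps Trmt112 on the opposite strand. Esr1, the estrogen receptor of liver, had 50 counts with JMJD3 shRNA and 34 in control, a log2 ratio of -0.13 (-0.79 to 0.54). Known targets of LRH-1 were 8 of 12 lower and 1 higher, or 66.7% and 8.33%, against 12.8% and 15.3% of all measured genes, and their median was -1.25. With a minimum of 5 CPM 4 were lower, as Cyp8b1, Cyp7a1, Nr0b2 and Slc10a1 lie under it. Of them Cyp8b1, which sets the mix of bile acids, had 1 count with JMJD3 shRNA and 72 in control, Tkt and Scarb1, the most counted, were at -0.35 and 0.01, and Plk3 was higher at 1.15. The exons of Plk3 overlap those of Tctex1d4 on the opposite strand, so its count is uncertain, and with overlapping genes left out 0 of the list were higher. Targets of the estrogen-related receptors were 5 of 14 lower and 0 higher, or 35.7% lower against 12.8% of all measured genes, and their median was -0.46. Fh1, fumarase, was lowest at -2.66, the coactivator Ppargc1a was at -1.04, and Cs, citrate synthase, was highest at 0.12. Ppargc1b, also in this list, went the other way, with 21 counts with JMJD3 shRNA and 0 in control. Its mean of 0.58 CPM left it unmeasured and outside these counts.

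The 11 lists of partners, ligand enzymes and targets held 146 distinct measured genes, of which 19 were higher and 55 lower. These are 13.0% and 37.7% of them, against 15.3% and 12.8% of all measured genes. Several genes stand in more than 1 list, and the lists were chosen with earlier results of these data known. The shares are therefore a description and not a test of receptor targets. Hepatocyte markers, in a list of their own, were 5 of 10 lower with a median of -0.60. Their part in these shares was not tested.

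**Figure D3:**
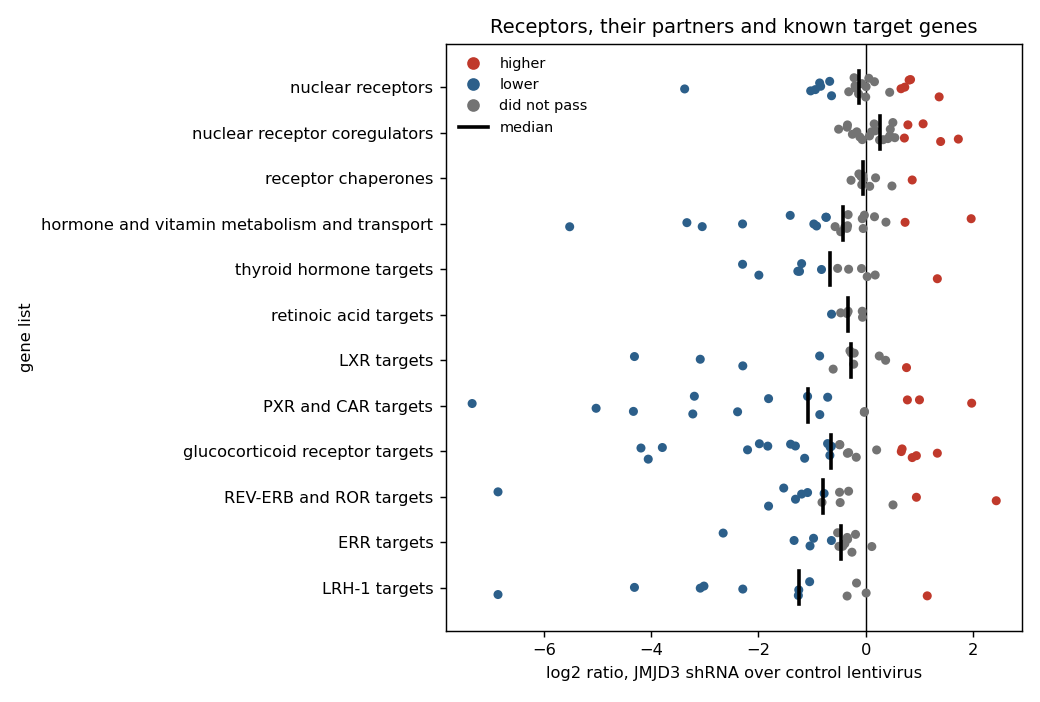
Log2 ratio of JMJD3 shRNA over control lentivirus (x axis) for the measured receptors and for the measured genes of 11 lists of partners, ligand enzymes and known targets (y axis). Each point is a gene, coloured by whether it was higher, lower or did not pass, black bars are medians, and Cyp7a1 is drawn at its bound from a floor of 3 counts. The receptor median lay at -0.13, and the target lists had medians between -1.25 and -0.28.

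The remaining 11 receptors were not measured. Nr2e1, Nr2e3, Nr2f1 and Nr0b1 had 0 counts in both libraries, which allows up to 3 counts, or 0.166 CPM with JMJD3 shRNA and 0.267 CPM in control. Nr1i3, Esr2, Esrrb, Esrrg, Pgr and Nr5a1 had between 1 and 9 counts in each library, and their intervals all included 1. Hnf4g, a relative of the liver factor HNF4alpha known from gut, had 22 counts with JMJD3 shRNA and 2 in control. Its mean level fell below 1 CPM, and its log2 ratio of 2.77 had an interval of 0.75 to 5.90.

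Ratios between related receptors do not depend on how the libraries were scaled, so the balance within 10 pairs was computed from the counts per exon length. It can still move with the exon length trend given below, which was left in here. With that trend removed Nr2c2 and Nr2c1 stood at log2 ratios of 0.39 and 0.06, nearer each other than before. Nr3c1 and Nr3c2 were also nearer, at 0.56 and -0.32, while Thra and Thrb, at 0.13 and -1.13, were further apart. Thra made up 61.7% (58.9 to 64.4) of Thra and Thrb with JMJD3 shRNA against 46.4% (42.9 to 49.8) in control. Thrb was thus the larger of the pair in control and Thra with JMJD3 shRNA, though the control interval ended just under 50%. If both reads of a pair were counted that interval is too narrow, so the order in control is uncertain. The order also turned for Rara and Rarb, where Rara made up 67.3% with JMJD3 shRNA against 33.9% in control, a 4.02-fold shift (3.31 to 4.88) in their ratio. Rara made up 56.8% of Rara and Rarg with JMJD3 shRNA against 44.5% (40.4 to 48.7) in control, where the same limit holds. Rarb made up 38.9% of Rarb and Rarg with JMJD3 shRNA against 61.0% in control. In the other 6 pairs the larger gene was the same in both libraries. Nr3c1 made up 89.7% of the corticosteroid receptor pair with JMJD3 shRNA against 81.0% in control. Nr1h2 made up 75.7% of the LXR pair with JMJD3 shRNA against 68.1% in control, and Nr2f6 80.2% of Nr2f6 and Nr2f2 with JMJD3 shRNA against 71.7% in control. Nr1d1 made up 36.5% of the REV-ERB pair with JMJD3 shRNA against 30.9% in control. Nr2c2 made up 37.9% of the TR2 and TR4 pair with JMJD3 shRNA against 29.2% in control, and Rora 99.7% of Rora and Rorb with JMJD3 shRNA against 96.7% in control. In each of the 10 pairs the interval of the shift excluded 1, with counting error alone considered and the exon length trend left in. The smallest shift was that of the REV-ERB pair, at 1.29-fold (1.09 to 1.52).

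**Figure D4:**
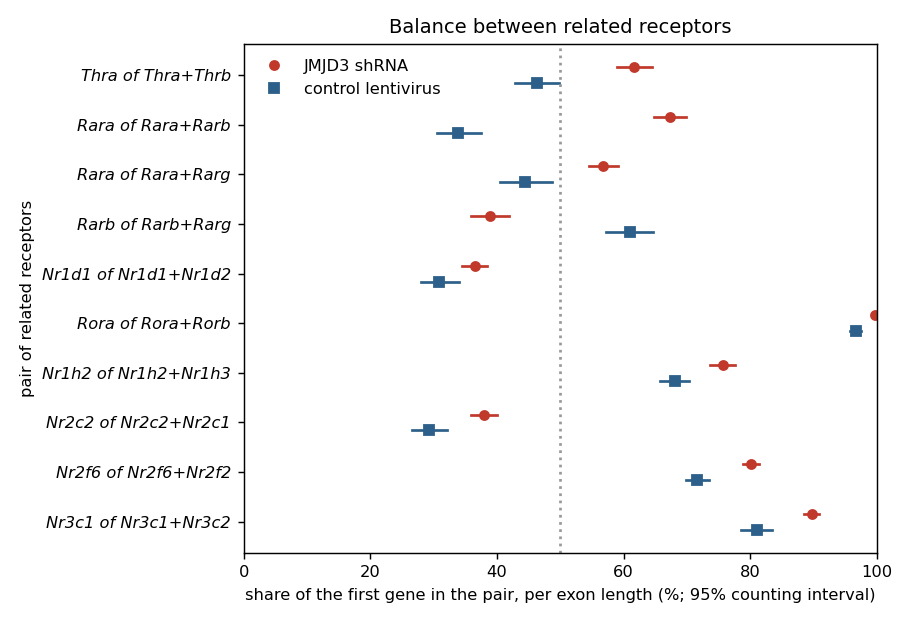
Share of the first gene in each of 10 pairs of related receptors (x axis, percent of the pair's counts per exon length), with JMJD3 shRNA as circles above control lentivirus as squares in each row (y axis). Bars are exact binomial 95% counting intervals, and the dotted line marks 50%. The Thra share was 61.7% with JMJD3 shRNA and 46.4% in control, and the Rara share of Rara and Rarb was 67.3% with JMJD3 shRNA and 33.9% in control.

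The ratio of all measured genes moved with exon length. In the fifth of genes with the longest exons (median 6295 bp) the median log2 ratio was 0.28, with 26.8% higher and 7.61% lower, and in the shortest (median 1183 bp) it was -0.28, with 6.03% higher and 19.8% lower. The median exon length of the 23 receptors was 3857 bp, against 2871 bp for all measured genes. With that trend removed Nr3c1 stood at 0.56 and Nr2c2 at 0.39, both under 1.5-fold, so that 3 receptors were higher (Rara, Rarg and Nr1d1) in place of 5. The 7 lower receptors were the same genes. Thrb, with 6555 bp of exon, and Rorb, with 9400 bp, are long genes with ratios well below the trend.

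**Figure D5:**
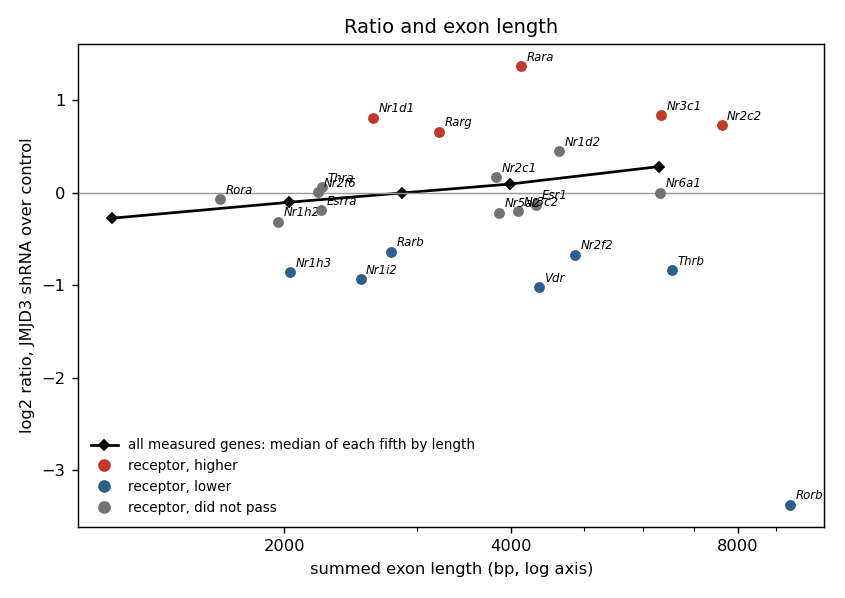
Log2 ratio of JMJD3 shRNA over control lentivirus (y axis) against summed exon length in bp on a log axis (x axis) for the 23 measured receptors, coloured by call. Diamonds joined by a line are the medians of all measured genes in 5 equal groups by length, which run upward to 0.28 in the longest. Rara, Nr1d1 and Rarg lay above that line and Thrb and Rorb far below it.

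The authors' deposited table of the same comparison lists 24 of the 34 receptors, the 23 measured ones and Hnf4g. The authors' deposited table holds 6 receptors that were higher and 6 that were lower at an adjusted p-value under 0.05, against 14.6% higher and 11.8% lower of its 12838 genes. Of the 12 receptors named as higher or lower above, 11 were among them. Both rest on the same libraries, so this overlap is not an independent check. Vdr was not, with an adjusted p-value of 0.114 in the authors' deposited table, and Hnf4g was added there as higher with 0.0126. How the authors' deposited table reached its p-values from 1 library a group is not given in the sources used here.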

How the data were processed

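RNA was sequenced as 100 bp paired ends in 2 libraries, 1 per group, with groups taken from the sample titles. Per the file headers, the deposited counts are whole reads that featureCounts 1.4.6-p4 assigned to UCSC gene models for mm9 without regard to strand, from STAR alignments. The command names no read-pair option, so both reads of a pair may be counted and intervals are then too narrow. The submitters' processing notes name Trimmomatic 0.36, STAR 2.5.3a and edgeR. The authors' deposited table gives log2 fold changes, average log2 CPM and p-values, and its sign matched the count ratio in all 12824 genes compared.

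Library totals were multiplied by TMM factors (edgeR 4.0.16, R 4.3.3). Ratios used no pseudocount, and genes at 0 were given the floor of 3 counts. Intervals are exact conditional binomial (Clopper-Pearson, scipy 1.17.1), and those of pair shifts are conditional odds ratios. The calculation was tested on simulated data. Alternatives were other scaling, filters and thresholds, overlapping genes left out, the exon length trend removed (lowess, statsmodels 0.14.6) and counts halved. The receptors and lists were chosen with earlier results of these data known, and several lists share genes. All 34 receptors may be named, and of each list the 2 most counted by mean CPM, the highest, the lowest and any that passed. Tsc22d3, Cry1, Npas2, Clock, Cyp26a1, Cyp26b1, Hsd11b1 and Ppargc1b were named after their values were seen. Promoters came from RefSeq for GRCm38.p6, and the retinoic acid motif was added after the values were seen.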

Additional observations from a re-analysis of the deposited data

How the results depend on the processing

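No paired analysis was possible because each group has 1 library, and for the same reason none could be left out. The 5 higher and 7 lower receptors were the same genes with library totals alone and with DESeq2 1.42.0 size factors. With the exon length trend removed 3 were higher, as fewer long genes then reached 1.5-fold. At a 2-fold threshold 1 receptor was higher, Rara, and 2 were lower, Rorb and Vdr, and of the genes of all partner and target lists 9 were higher in place of 19. With no filter Hnf4g joined the higher receptors. With a minimum of 5 CPM Rorb and Vdr were no longer measured, with overlapping genes left out Nr2c2 was not, and with counts halved Vdr did not pass. The median log2 ratio of the receptors ran between -0.22 and -0.03 over these alternatives. No receptor that was higher or lower changed direction under any of them. Depth limits Vdr, Esr1, Rorb and the unmeasured receptors most.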

Other observations

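All 23 coregulators sought, the cofactors through which nuclear receptors act, were measured. Of them 5 were higher and 0 lower, or 21.7% higher against 15.3% of all measured genes, where 12.8% were lower, and the median log2 ratio was 0.26. The ligand-dependent corepressors Lcor and Nrip1 were highest, at 20.7 CPM with JMJD3 shRNA against 6.23 CPM in control (log2 ratio 1.73) and at 50.7 CPM with JMJD3 shRNA against 19.2 CPM in control. Tbl1x, a part of the NCoR and SMRT complexes, was at 1.07, the methyltransferase Carm1 at 0.79 and the coactivator Ncoa6 at 0.72. The most counted members, the corepressor Ncor1 at 0.46 and the remodelling ATPase Smarca4 at 0.07, did not pass, and Ncoa4 was lowest at -0.50. These genes have long exons, and with the exon length trend removed the median was -0.01. Ncoa6 then stood at 0.42 and no longer passed, and Ncoa4 at -0.59 and Tbl1xr1 at -0.61 were lower, so that 4 were higher and 2 lower. The exons of Carm1 overlap those of Yipf2 on the opposite strand, so its count is uncertain. Of 10 receptor chaperones 1 was higher (10.0%), Fkbp5, and 0 were lower, and Hsp90ab1 and Hspa8, the most counted, were at -0.05 and -0.09.

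Genes that make, carry or remove receptor ligands held 9 lower and 2 higher of 22 measured, or 40.9% and 9.09%, against 12.8% and 15.3% of all measured genes, and the median was -0.43. Aldh1a1, which makes retinoic acid and was the most counted, had 1405 CPM with JMJD3 shRNA against 2650 CPM in control, and Rbp4, the plasma carrier of retinol, was at -1.41. Rdh10, which makes retinal, was highest at 1.97 (1.71 to 2.24), with 47.7 CPM with JMJD3 shRNA against 12.2 CPM in control. The thyroid hormone transporter Slc16a10 was at -3.05, and Dio2, a deiodinase, was lowest on 2 counts with JMJD3 shRNA and 57 in control, a log2 ratio of -5.52 (-8.60 to -3.60). Hsd17b2, which inactivates sex steroids, was higher at 0.74. Hsd11b1, which regenerates active glucocorticoid, had 44 counts with JMJD3 shRNA and 21 in control, a log2 ratio of 0.38 (-0.40 to 1.20).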
